A study of Mus musculus with 4 samples.

Results

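The genes described are the ligands and receptors of the tumour necrosis factor (TNF) superfamily, taken as every gene whose symbol begins with Tnfsf or Tnfrsf plus Tnf, Lta, Ltb, Ltbr, Fasl, Fas, Cd40lg, Cd40, Cd27 and Cd70. Of 43 such symbols in RefSeq, 37 had a probe set naming that gene alone, out of 18194 genes so measured on the array. They comprise 13 ligands, 23 receptors and Tnfsf13os, a long non-coding RNA gene that the symbol rule takes in. Levels were measured in mouse CD4+ T cells after 72 h under conditions that favour Th17 differentiation, with IL-6 at 20 ng/ml, TGF-β at 2 ng/ml, stimulation through CD3 and CD28, and antibody against IL-4. All cells came from C57BL/6J mice with the OT2 T cell receptor transgene, were sorted as naive CD44-negative CD62L-positive cells from spleen and lymph nodes, and are of 4 kinds with 1 array each.

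STAT3-deficient cells (CD4-Cre stat3 fl/fl OT2) and STAT3 wild-type cells (stat3 fl/fl OT2) were cultured with antibody against IL-2 at 10 µg/ml. STAT5-deficient cells (CD4-Cre stat5 fl/fl OT2) and STAT5 wild-type cells (stat5 fl/fl OT2) received IL-2 at 100 IU/ml instead. Cre under the CD4 promoter acts in T cells from the thymus onward, so the deletion precedes the culture. The genotype label of both deficient samples also carries the words for wild type, against their titles, and the titles were followed. Stat3 stood at 9.93 on the STAT3-deficient array and 12.87 on its control, Stat5a at 5.91 on the STAT5-deficient array and 10.92 on its control, and Stat5b at 6.09 and 11.33 on those same arrays. With 1 array per kind no difference has a replicate check, so no test or error can be given and precision is limited by the number of arrays. Array medians lay between 6.10 (STAT3-deficient) and 6.34 (STAT3 wild type). Markers of CD4 T cells lay above the filter level described next in 7 of 7 measured genes on every array, with a summed linear level between 39206 and 42407. B cell markers lay above it in 0 to 2 of 5 genes (sum 251 to 320), myeloid markers in 3 of 7 (473 to 531), dendritic cell markers in 1 to 3 of 5 (316 to 334), natural killer markers in 2 of 4 (470 to 588) and CD8 markers in 1 to 2 of 2 (282 to 385). Since a bulk culture was measured, a lower share of cells with a transcript and less of it per cell cannot be told apart.

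Ligands of this superfamily are mostly trimeric proteins of the cell surface, some of which are also shed, and each binds 1 or a few receptors. The receptors either carry a death domain that can start apoptosis, or recruit TRAF adaptors that activate NF-κB and support survival and costimulation, while some are decoys without signalling. On activated helper T cells the receptors OX40 (Tnfrsf4), 4-1BB (Tnfrsf9), GITR (Tnfrsf18) and CD27 sustain the response, and the same cells display ligands such as CD40 ligand, Fas ligand and RANKL that act on other cells.

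Levels are the deposited values read as log2, so that a difference of 1 is 2-fold, and a gene is called higher or lower at that size. A level of 6.20, the 50th percentile over the whole table, was taken as the background level, since no detection calls come with the values. A gene was compared where at least 1 of its 4 levels exceeded that, which held for 34 of the 37 measured members and 12440 of the 18194 genes. Tnfrsf11b, Tnfrsf17 and Tnfrsf19 stayed below it on all arrays. Another 5 members (Fasl, Tnfsf13b, Tnfrsf10b, Tnfrsf11a and Tnfsf13os) passed on 1 array alone, so for these a difference is partly set by the filter. The same holds for 3 members that passed on 2 arrays. These are Cd70 and Tnfrsf13c, on the deficient arrays alone, and Tnfrsf8, on the STAT3 wild-type and STAT5-deficient arrays. Where the lower level of a called difference lies under 6.20, the difference as measured includes values at background, and the distance of the other level from 6.20 is a lower bound on its size. Besides Cd70 this bound was 2.60 for Fasl, 1.46 for Tnfrsf23, 1.22 for Tnfrsf21, 1.39 for Tnfrsf13c and 1.23 for Tnfrsf8 in the STAT3 pair. In the STAT5 pair it was 0.37 for Tnfrsf13c and 0.71 for Tnfrsf8, under 2-fold for both. Levels of different genes come from different probes and, apart from the marker sums, were not combined or set against each other.

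In STAT3-deficient cells many ligands were higher than in STAT3 wild-type cells, while receptors differed in both directions. Of the 13 ligands, 7 were called higher and 0 lower, and all 13 differences lay above 0, from 0.003 for Ltb to 4.12 for Cd70, with a median of 1.19. Of the 20 receptors that passed the filter, 3 were called higher and 6 lower, and 6 lay above 0, with a median of -0.31. Of all 12440 genes compared, 3823 lay above 0, so the receptor share above 0 was near that of all genes. Over all members that passed, 10 were called higher and 6 lower, against 2.85% higher and 7.23% lower among all genes compared, whose median was -0.20. The median of these 34 members was 0.27, and that of the 37 without the filter was 0.01. Lower genes made up 71.8% of all called genes in the values as given, 53.4% once array medians were set equal and 53.8% after intensity-dependent centring. All 13 ligands lay above 0 under both kinds of centring, whereas 9 and 10 of the 20 receptors did, with receptor medians of -0.07 and 0.01, so the balance of the receptors depends on the scaling. The medians of all genes compared were then 0.04 and 0.003. In the values as deposited, 10 of the 13 ligands had their highest level on the STAT3-deficient array and 0 on the STAT3 wild-type array. The share of all genes with their highest level on each array was not counted, so these counts have no background to be read against.

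**Figure D1:**
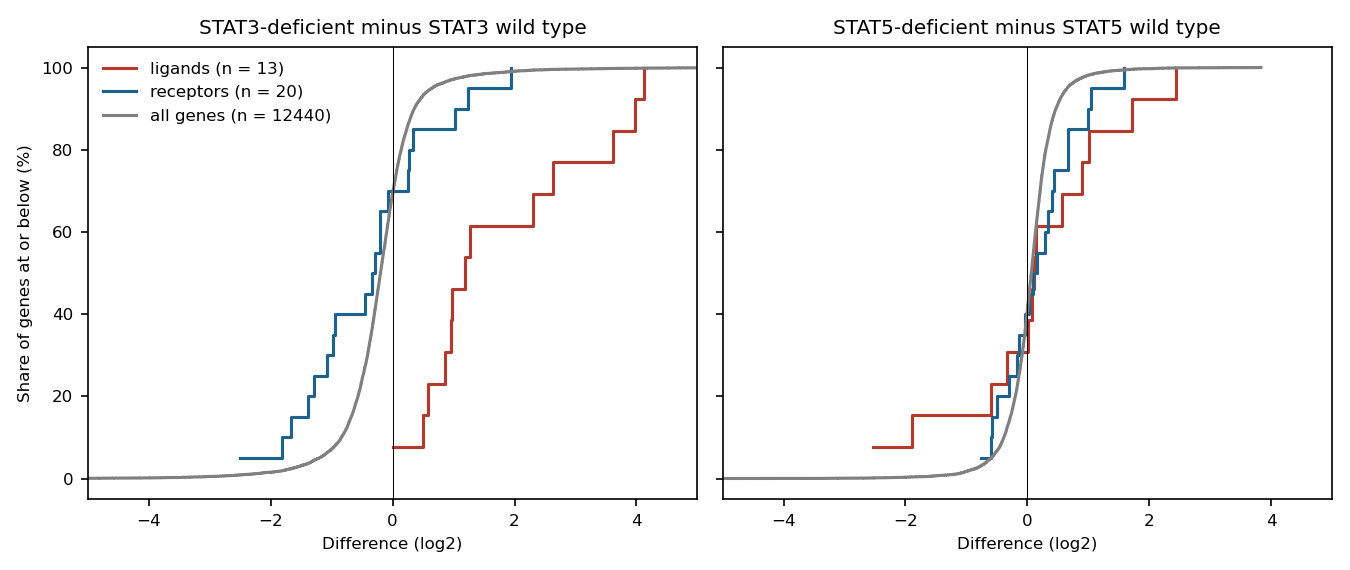
Share of genes (vertical axis, %) at or below a given log2 difference (horizontal axis, drawn from -5 to 5) for 13 ligands, 20 receptors and all 12440 genes compared, in the STAT3 pair (left) and the STAT5 pair (right). In the STAT3 pair the ligand curve lies wholly at or right of 0 with a median of 1.19, whereas in the STAT5 pair the medians are 0.11 for ligands and 0.13 for receptors.

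Cd70, Tnfsf11 and Fasl each differed by more than 3 on the log2 scale without STAT3; the lower level of Cd70 and of Fasl lay under background, so the order of the 3 is not defined. Cd70, the ligand of CD27, stood at 9.48 in STAT3-deficient cells and 5.36 in STAT3 wild-type cells, and at 7.83 in STAT5-deficient and 5.39 in STAT5 wild-type cells. Both controls lay under the background level and both deficient cultures above it. The measured difference was 4.12 without STAT3 and 2.44 without STAT5; counted from the 6.20 level, the deficient arrays were higher by at least 3.28 and 1.64. Cd27, its receptor, stood at 8.98 and 9.05 in the STAT3 pair (-0.08) and at 8.80 and 8.14 in the STAT5 pair (0.66). The ligand was thus called higher in both deletions while the receptor was within 2-fold in both.

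Tnfsf11 encodes RANKL, the ligand of RANK that drives osteoclast formation and lymph node development. It stood at 10.87 in STAT3-deficient and 6.88 in STAT3 wild-type cells (3.98, 15.8-fold), and at 8.71 in STAT5-deficient and 6.99 in STAT5 wild-type cells (1.72, 3.30-fold). Its other probe set gave 3.89 and 1.82, so both probe sets were past 2-fold in both pairs. The receptor gene Tnfrsf11a lay close to or under the background level on all 4 arrays, at 6.12 in STAT3-deficient and 6.32 in STAT3 wild-type cells and at 6.05 in STAT5-deficient and 5.61 in STAT5 wild-type cells. Its other probe set, under background on all 4, gave 0.69 in the STAT3 pair, against -0.21, and 0.20 in the STAT5 pair. Tnfrsf11b, which encodes the soluble decoy osteoprotegerin, lay between 5.33 and 5.78.

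Fasl, whose product triggers apoptosis through Fas, stood at 8.80 in STAT3-deficient cells and 5.18 in STAT3 wild-type cells, and at 5.40 in STAT5-deficient and 5.73 in STAT5 wild-type cells. The STAT3-deficient culture was the 1 of 4 above background, with a difference of 3.62 and 4.76 by its 2 probe sets. In the STAT5 pair the 2 probe sets gave -0.33 and -1.46 with all 4 values under 6.20. Fas stood at 8.58 and 8.78 in the STAT3 pair (-0.20) and at 8.42 and 8.27 in the STAT5 pair (0.15). Fas thus differed by less than 2-fold in both pairs.

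Tnfsf10 encodes TRAIL, a death ligand whose signalling receptor in mice is the product of Tnfrsf10b. It stood at 9.18 in STAT3-deficient and 6.55 in STAT3 wild-type cells (2.62, 6.16-fold), with its other 2 probe sets at 2.59 and 1.33. In STAT5-deficient cells it was at 7.55 and in their control at 6.64 (0.90), and its 3 probe sets gave 0.84 to 0.97. All 3 probe sets thus lay above 0 in both pairs and were called higher in the STAT3 pair. Tnfrsf10b lay near or under background, at 5.47 and 5.81 in the STAT3 pair (-0.33) and at 6.41 and 6.07 in the STAT5 pair (0.35). Its other probe set, under background on all arrays, gave the opposite signs, 0.48 and -0.165.

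Tnfrsf22 and Tnfrsf23 encode TRAIL decoy receptors of the mouse, and both were lower without STAT3. Tnfrsf23 stood at 5.15 in STAT3-deficient and 7.66 in STAT3 wild-type cells (-2.51), and at 7.26 in STAT5-deficient and 7.56 in STAT5 wild-type cells (-0.30). Tnfrsf22 stood at 6.84 and 8.50 in the STAT3 pair (-1.66) and at 7.91 and 8.49 in the STAT5 pair (-0.58). The STAT3-deficient array was the lowest of the 4 for both genes. The other 2 probe sets of Tnfrsf22 gave -0.66 and -0.76 in the STAT3 pair, and a probe set naming both genes gave -1.54. These neighbouring genes are close relatives, so signal may be shared between them.

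Tnfsf8, the ligand of CD30, and Tnfrsf8, which encodes CD30, differed in opposite directions without STAT3. Tnfsf8 stood at 8.81 in STAT3-deficient cells, against 6.51 in STAT3 wild-type cells (2.30), and at 6.59 in STAT5-deficient and 6.47 in STAT5 wild-type cells (0.11). The STAT3-deficient culture stood above the other 3, which lay close together. Tnfrsf8 stood at 6.03 in STAT3-deficient and 7.43 in STAT3 wild-type cells (-1.39), and at 6.91 in STAT5-deficient and 5.32 in STAT5 wild-type cells (1.59). The receptor was therefore lower in the first deletion and higher in the second, with 2 of its 4 levels under background.

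Tnf, the founding cytokine of the family, stood at 9.58 in STAT3-deficient and 8.32 in STAT3 wild-type cells (1.26), and at 8.29 in STAT5-deficient and 8.88 in STAT5 wild-type cells (-0.59). Tnfrsf1a, its death domain receptor, stood at 8.84 and 9.92 in the STAT3 pair (-1.08) and at 9.75 and 9.92 in the STAT5 pair (-0.17). The STAT3-deficient array was the highest of the 4 for the ligand and the lowest for this receptor. With arrays centred Tnfrsf1a came to -0.84, and to -0.92 after intensity-dependent centring, so its call depends on the scaling. Tnfrsf1b, the receptor of TNF that lacks a death domain, was level, at 10.65 and 10.32 in the STAT3 pair (0.34) and at 10.47 and 10.44 in the STAT5 pair (0.03).

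**Figure D2:**
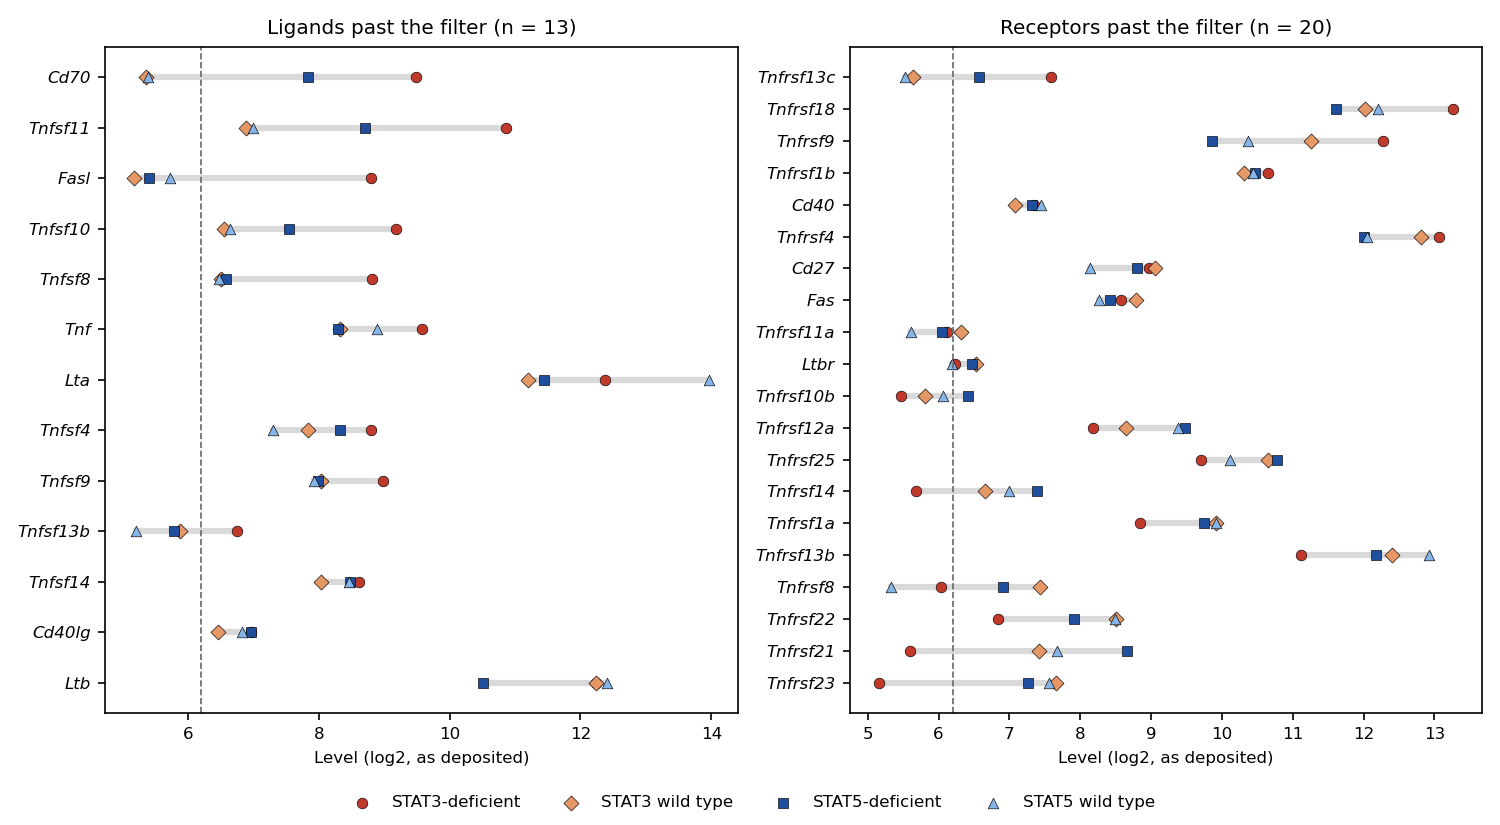
Levels (horizontal axis, log2 as deposited) of the 13 ligands (left) and the 20 receptors (right) that passed the filter, 1 point per array, ordered by the STAT3 difference. The dashed line is the 6.20 background level and the grey bar spans the 4 arrays. Both deficient arrays lie right of both controls for Cd70, Tnfsf11 and Tnfsf10. The same holds for Tnfsf4, Tnfsf8, Cd40lg, Tnfsf14, Tnfrsf13c and Tnfrsf1b, by gaps as small as 8.48 against 8.46 for Tnfsf14. How many of all genes compared show this order was not counted, so it only describes the plot.

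The lymphotoxin genes had another pattern, being lower without STAT5. Lta encodes lymphotoxin α, which binds the TNF receptors as a homotrimer and Ltbr together with lymphotoxin β. It stood at 12.38 in STAT3-deficient and 11.19 in STAT3 wild-type cells (1.19), and at 11.44 in STAT5-deficient and 13.96 in STAT5 wild-type cells (-2.52, 5.75-fold). The STAT5 wild-type culture was the highest of the 4. Ltb, which encodes lymphotoxin β, stood at 10.51 in STAT5-deficient cells and 12.41 in STAT5 wild-type cells (-1.90, 3.73-fold), whereas the STAT3 pair was level at 12.23 on both arrays. The STAT5-deficient array was the lowest of the 4 for Ltb, and each gene has 1 probe set. Ltbr, the receptor gene, which acts mainly on stromal and myeloid cells, lay close to background, at 6.24 and 6.52 in the STAT3 pair (-0.29) and at 6.48 and 6.19 in the STAT5 pair (0.29).

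Lta and Ltb lie next to Tnf on chromosome 17, with no other protein-coding gene between the 3 in RefSeq. Their promoter windows are shown because these neighbours differed from Tnf in the STAT5 pair, where Tnf stayed within 2-fold. The windows, from 250 bases before to 50 bases after each gene's start, were taken from RefSeq (GRCm38.p6) and are written 5′ to 3′ along the gene's own strand. Capitals mark matches to TTCNNNGAA, the palindromic consensus that STAT dimers are known to bind, so both strands give the same matches. The windows are chr17:35205302-35205601 on the minus strand for Lta, chr17:35194257-35194556 on the plus strand for Ltb and chr17:35201958-35202257 on the minus strand for Tnf.
Lta: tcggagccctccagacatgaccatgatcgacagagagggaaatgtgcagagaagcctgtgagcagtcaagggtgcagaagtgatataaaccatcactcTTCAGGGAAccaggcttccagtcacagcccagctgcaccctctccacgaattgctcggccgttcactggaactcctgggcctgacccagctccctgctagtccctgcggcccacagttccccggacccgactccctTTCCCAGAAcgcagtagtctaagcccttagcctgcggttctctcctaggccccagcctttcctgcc
Ltb: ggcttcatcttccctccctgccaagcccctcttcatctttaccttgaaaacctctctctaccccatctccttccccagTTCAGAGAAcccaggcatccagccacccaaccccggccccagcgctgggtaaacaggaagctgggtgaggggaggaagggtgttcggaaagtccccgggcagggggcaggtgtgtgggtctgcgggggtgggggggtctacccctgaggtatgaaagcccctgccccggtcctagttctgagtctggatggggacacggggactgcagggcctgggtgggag
Tnf: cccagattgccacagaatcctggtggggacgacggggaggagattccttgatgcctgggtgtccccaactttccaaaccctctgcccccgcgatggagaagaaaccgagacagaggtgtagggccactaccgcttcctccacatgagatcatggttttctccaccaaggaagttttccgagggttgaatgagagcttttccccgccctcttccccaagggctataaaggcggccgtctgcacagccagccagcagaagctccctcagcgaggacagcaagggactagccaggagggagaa

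The Lta window holds 2 matches, which begin 152 and 16 bases before the start, and the Ltb window holds 1, which begins 172 bases before it. The Tnf window holds none of these letters. Among 32851 windows of all genes 8.30% hold at least 1 match and 0.457% hold 2 or more. Of the 37 measured members 28 matched a window by symbol, and 9 of these (32.1%) hold a match in at least 1 of their windows, against 8.57% of the 14453 array genes with a window. They are Lta, Ltb, Fas, Tnfrsf1a, Tnfrsf1b, Tnfrsf9, Tnfrsf18, Tnfrsf19 and Tnfrsf25. Among them Fas, Tnfrsf1b and Tnfrsf25 were within 2-fold in both pairs, and Tnfrsf19 was under the filter and not compared. The called members Tnf, Fasl, Tnfsf8, Tnfsf10, Tnfsf11, Tnfrsf8, Tnfrsf13b, Tnfrsf13c, Tnfrsf21 and Tnfrsf23 hold no match in their windows. Cd70, Tnfsf4 and Tnfrsf22, also called, had no window. Whether the matches bear on the differences was not tested. A match of letters is a description and not a binding site.

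Over all members, the STAT5 pair had 5 called higher, Cd70, Tnfsf11, Tnfrsf8, Tnfrsf13c and Tnfsf4, and 2 lower, Lta and Ltb, of the 34 that passed. Among all genes compared, 1.86% were called higher and 1.74% lower. The median was 0.11 over these members and 0.06 over all genes. Ligands had 3 higher, 2 lower and a median of 0.11, and receptors 2 higher, 0 lower and a median of 0.13. With arrays centred on their medians, Tnfsf4 came to 0.95 and Tnfrsf13c to 0.99, which left 3 higher members.

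The receptor genes Tnfrsf18 and Tnfrsf9 were called higher without STAT3 and stayed within 2-fold without STAT5. Tnfrsf18, which encodes GITR, stood at 13.27 in STAT3-deficient and 12.03 in STAT3 wild-type cells (1.24), and at 11.61 in STAT5-deficient and 12.20 in STAT5 wild-type cells (-0.60). Tnfrsf9, which encodes 4-1BB, stood at 12.28 and 11.26 in the STAT3 pair (1.02) and at 9.86 and 10.37 in the STAT5 pair (-0.51). For both receptors the STAT3-deficient array was the highest and the STAT5-deficient array the lowest of the 4. Of its 3 probe sets, 2 gave 1.02 and 1.56 for Tnfrsf9 without STAT3, and the third lay under background at -0.20; averaged, they gave 0.79. Tnfsf9, its ligand, stood at 8.99 in STAT3-deficient and 8.03 in STAT3 wild-type cells (0.96, or 1.20 with arrays centred), and at 7.99 and 7.92 in the STAT5 pair (0.07).

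Tnfrsf4, which encodes OX40, stood at 13.07 in STAT3-deficient and 12.81 in STAT3 wild-type cells (0.26), and at 12.00 and 12.05 in the STAT5 pair (-0.04). Its ligand gene Tnfsf4 stood at 8.80 and 7.83 in the STAT3 pair (0.97) and at 8.32 in STAT5-deficient and 7.30 in STAT5 wild-type cells (1.02). The ligand thus differed by close to 2-fold in both deletions, with the call decided by the scaling (1.21 and 0.95 with arrays centred). Tnfsf14, which encodes LIGHT, a ligand of HVEM and of the lymphotoxin β receptor, stood at 8.61 in STAT3-deficient and 8.04 in STAT3 wild-type cells (0.57) and at 8.48 and 8.46 in the STAT5 pair (0.02). Tnfrsf14, the gene of HVEM, stood at 5.68 in STAT3-deficient and 6.66 in STAT3 wild-type cells (-0.97), and at 7.39 and 6.99 in the STAT5 pair (0.41). Both genes of this route stayed within 2-fold in both deletions. Cd40lg, the helper signal to B cells, stood at 6.96 and 6.46 in the STAT3 pair (0.50) and at 6.97 and 6.82 in the STAT5 pair (0.15), and Cd40 lay between 7.08 and 7.45 on all arrays.

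Among receptors of the ligands BAFF and APRIL, Tnfrsf13c and Tnfrsf13b differed in opposite directions without STAT3. Tnfrsf13c, the BAFF receptor best known from B cells, stood at 7.59 in STAT3-deficient and 5.64 in STAT3 wild-type cells (1.94), and at 6.57 in STAT5-deficient and 5.52 in STAT5 wild-type cells (1.05). It lay above background in both deficient cultures and below it in both controls. The summed level of B cell markers was 260 in STAT3-deficient and 272 in STAT3 wild-type cells, and 320 in STAT5-deficient and 251 in STAT5 wild-type cells. Of these 5 markers, 0, 1, 2 and 1 lay above background on those arrays in turn, so the sums are mostly background signal. The part of B cells in the result was not tested. Tnfrsf13b, which encodes TACI, stood at 11.12 in STAT3-deficient and 12.41 in STAT3 wild-type cells (-1.29), and at 12.17 and 12.93 in the STAT5 pair (-0.75). The BAFF gene Tnfsf13b passed the filter on the STAT3-deficient array alone, at 6.75 there and 5.88 in STAT3 wild-type cells (0.86), with 5.78 and 5.21 in the STAT5 pair (0.57). Its other 2 probe sets, under background on all arrays, gave 0.01 and 0.66 in the STAT3 pair and -0.44 and 0.38 in the STAT5 pair.

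Tnfrsf21 encodes DR6, a receptor with a death domain, and stood at 5.60 in STAT3-deficient and 7.42 in STAT3 wild-type cells (-1.82), and at 8.66 in STAT5-deficient and 7.67 in STAT5 wild-type cells (0.997, just under 2-fold). Its other probe set gave -2.18 and 0.75, so the gene was lowest in the first deficient culture and highest in the second by both. Tnfrsf25, which encodes DR3, another death domain receptor, stood at 9.71 and 10.66 in the STAT3 pair (-0.95) and at 10.78 and 10.12 in the STAT5 pair (0.66), within 2-fold in both. Tnfrsf12a, which encodes the TWEAK receptor Fn14 and has no death domain, stood at 8.19 and 8.64 in the STAT3 pair (-0.45) and at 9.48 and 9.37 in the STAT5 pair (0.10). Tnfsf13os lay between 5.56 and 6.21 on the 4 arrays.

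Each ligand was then set beside its own receptors. The list holds 25 known pairs, of which 20 had both genes measured and 18 had both past the filter, and pairs that share a gene, such as the 3 with Lta, are not independent. In the STAT3 pair of cultures the ligand alone was called in 7 pairs, the receptor alone in 3, both in opposite directions in 3 (Tnf and Lta with Tnfrsf1a, Tnfsf8 with Tnfrsf8), neither in 5 and both in the same direction in 0. With arrays centred, Tnfsf9 with Tnfrsf9 and Tnfsf13b with Tnfrsf13c became the 2 pairs called in the same direction, 2 were opposite and the ligand alone was called in 10. In the STAT5 pair of cultures the ligand alone was called in 7 pairs, the receptor alone in 2 and neither in 9, or 6, 1 and 11 with arrays centred. At 1.5-fold the same 2 pairs were called in the same direction without STAT3, and Cd70 with Cd27 without STAT5. The receptor genes Tnfrsf10b, Tnfrsf11a and Ltbr lay close to or under background, where a decrease could hardly show. No share over other gene pairs was computed, so the pair counts are a description.

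**Figure D3:**
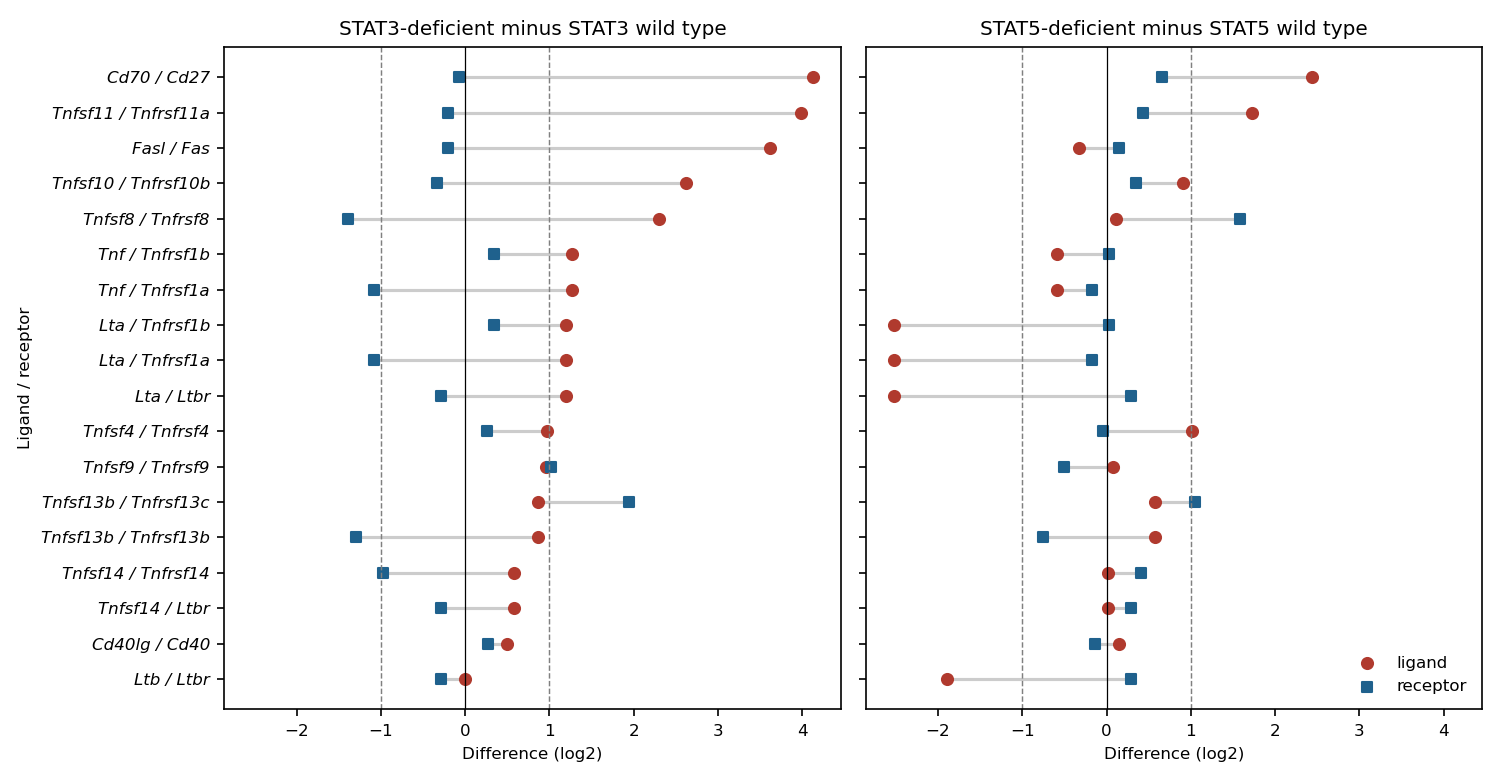
Log2 difference (horizontal axis) of ligand (circle) and receptor (square) in the 18 matched pairs, for the STAT3 pair of cultures (left) and the STAT5 pair (right), with dashed lines at 2-fold. In the left panel Cd70, Tnfsf11 and Fasl lie from 3.62 to 4.12 while their receptors lie from -0.21 to -0.08; in the right panel Lta lies at -2.52 and Ltb at -1.90.

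Between the 2 deletions, which share no array, 3 members were called higher in both, Cd70, Tnfsf11 and Tnfrsf13c, against 0.378% of all genes compared. Another 2 were called in opposite directions, Lta (1.19 without STAT3 and -2.52 without STAT5) and Tnfrsf8 (-1.39 and 1.59), against 0.732% of all genes. The difference between the effects was not tested, and the 2 pairs of cultures also differ in IL-2 and in the floxed locus. Tnfrsf13c came to 0.99 in the STAT5 pair with arrays centred, so its place among the 3 depends on the scaling.

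**Figure D4:**
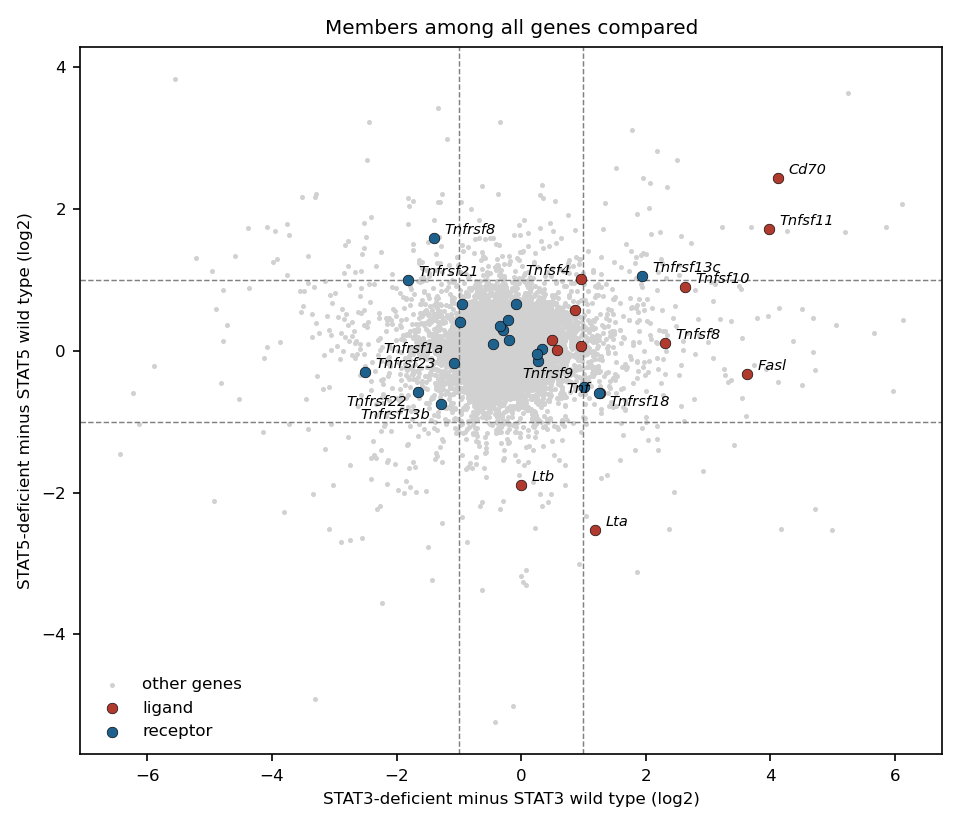
Log2 difference in the STAT3 pair (horizontal axis) and in the STAT5 pair (vertical axis) for ligands, receptors and all other genes compared, 1 point per gene, with dashed lines at 2-fold; names are given for members past 2-fold in either pair, and the points of Tnf and Tnfrsf18 overlap. Cd70 lies at 4.12 and 2.44 and Lta at 1.19 and -2.52.

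The 2 control cultures differ in IL-2, added in one and neutralised in the other, and in which locus is floxed, which cannot be told apart. In STAT5 wild-type minus STAT3 wild-type cells 1 member was called higher, Lta (2.77), and 1 lower, Tnfrsf8 (-2.10), against 2.35% higher and 2.95% lower among all genes, so the shares were near the background. Lower genes made up 55.7% of all called genes in this comparison and 27.8% with arrays centred. Lta stood at 13.96 and 11.19 on these arrays and Tnfrsf8 at 5.32 and 7.43. Cd70, Tnfsf11, Tnfsf10 and Tnfsf8, called higher without STAT3, differed by 0.03, 0.11, 0.09 and -0.03 between the controls. For Cd70 both of these levels lay under background. The other probe set of Tnfsf11 gave -0.56, and the other 2 of Tnfsf10 gave 0.095 and -0.54. Of the other ligands called higher without STAT3, Tnf differed by 0.57 and Fasl by 0.55 and 1.68 by its 2 probe sets, with all Fasl levels of both controls under background. This comparison shares an array with each deletion, and its values are given for reading beside them.

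Of 28 genes listed for signalling downstream of these receptors, 24 were measured and all 24 passed the filter. The called shares were near those of all genes without STAT3, at 4.17% higher and 8.33% lower against 2.85% and 7.23%, and came to 8.33% higher and 4.17% lower without STAT5, or 2 genes and 1, against 1.86% and 1.74%. Without STAT3, 1 was called higher, Rel (1.29), which encodes the NF-κB subunit c-Rel, and 2 lower, Birc3 (-1.08), an inhibitor of apoptosis bound to TRAF2, and Map3k14 (-1.01), the kinase NIK of the alternative NF-κB route. Birc3 came to -0.83 and Map3k14 to -0.76 with arrays centred. Without STAT5, Rel (1.09) and Tnfaip3 (1.05), the NF-κB feedback inhibitor A20, were higher and Traf6 (-1.35), an adaptor of CD40 and RANK, was lower, and Tnfaip3 came to 0.99 with arrays centred. The list's median was 0.04 without STAT3 and 0.19 without STAT5, against -0.20 and 0.06 over all genes compared. Traf1, Traf2, Traf4 and Traf5 were within 2-fold in both pairs, as were the death adaptors Tradd and Fadd, Casp8 and its inhibitor Cflar.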

How the data were processed

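RNA from the 4 cultures was labelled with biotin and read on Affymetrix mouse expression arrays, 1 per culture. The authors used Affymetrix Power Tools, per the submitters' processing notes. Neither its version nor its algorithm is known here. From their range, 2.48 to 15.09, the deposited values were taken to be log2; another base would change every fold.

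Of 45101 probe sets, 34958 name 1 gene, 932 several and 9211 none. A gene's value is its probe set with the highest mean over the arrays. Member symbols were checked by Entrez identifier in RefSeq, and 37 of 37 were unchanged. Genes were compared where 1 level exceeded percentile 50 (6.20). Calls are differences of at least 1. The code for differences, in Python 3.11.15, was run on simulated data with known shifts, which checks the code and not the calls made here. Values on all 4 arrays are given for members past 2-fold, their partners that passed the filter and ligands whose receptor passed it. Tnfrsf25, Tnfrsf12a and the downstream genes named as within 2-fold fall outside that rule and were chosen after their values were seen. The members and lists were chosen with earlier results of these data known. Over 5557 genes with several probe sets, differences varied between them with a median SD of 0.23 in the STAT3, 0.17 in the STAT5 and 0.21 in the control comparison. Alternatives were averaged probe sets, no _s_at, _x_at or _a_at probe sets, no filter or percentile 75 (8.29), array median or loess (span 0.4) centring, and 1.5-fold or 3-fold thresholds. Tnfrsf26, Tnfsf12, Tnfsf13, Tnfsf15, Tnfsf18 and Tnfsfm13 were not analysed here.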

Additional observations from a re-analysis of the deposited data

How the results depend on the processing

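Without STAT3, 10 members were higher and 6 lower, and both counts stayed within 1.5 times except at 3-fold, with 6 and 3. At 3-fold 1.44% of all genes compared were higher and 2.76% lower. The median of 0.27 came to 0.0101 without the filter, 0.57 with the filter at percentile 75 and 0.51 with arrays centred. Without STAT5, the 5 higher members came to 3 with the filter at percentile 75, either centring or a 3-fold threshold, and at 1.5-fold to 9 higher and 6 lower. The share of all genes called higher was 1.63% at percentile 75, 1.62% and 1.53% with the centrings and 0.587% at 3-fold. At 1.5-fold 6.43% of all genes were higher and 5.18% lower. Between controls, the 1 higher member came to 2 with probe sets averaged, with shared probe sets left out or at 1.5-fold, and the 1 lower member to 0 at percentile 75, 4 after loess centring and 6 at 1.5-fold. The shares of all genes called higher in the first 3 settings were 1.88%, 2.29% and 10.8%. Shares called lower were 1.96% at percentile 75, 2.5% after loess centring and 9.97% at 1.5-fold. No called member reversed its sign. Calls lost were Tnfrsf22 (-0.76, shared probe sets left out), Tnfrsf9 (0.79, averaged), and with loess centring Tnfrsf1a (-0.92), Tnfsf4 (0.97) and Tnfrsf13c (0.94) in the comparisons named above. Tnfrsf8, Tnfrsf23 and Tnfrsf13c did not pass the filter at percentile 75. Calls gained without STAT3 were Tnfsf9 (1.20 with arrays centred, 1.15 with loess), Tnfsf4 (1.21, 1.16) and Tnfsf13b (1.11, 1.20). Fasl gained a call without STAT5 (-1.46) and between controls (1.68) with shared probe sets left out, and between controls with probe sets averaged (1.11). Loess centring added Tnfrsf9 (-1.13), Cd27 (-1.005) and Tnfrsf4 (-1.006) between controls. The cause was not tested. Without detection calls, the 6.20 level is the sole guide to what lies above background. No paired analysis was possible because each group has 1 array.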

Other observations

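Several members stand next to each other on the chromosome in RefSeq's gene order, and neighbours did not share one size of difference. On chromosome 17, Tnfsf9, Cd70 and Tnfsf14 are consecutive protein-coding genes, with differences of 0.96, 4.12 and 0.57 without STAT3 and of 0.07, 2.44 and 0.02 without STAT5. On chromosome 1, Tnfsf4 and Fasl have Tnfsf18 alone between them and stood at 0.97 and 3.62 without STAT3 and at 1.02 and -0.33 without STAT5. The receptor genes Tnfrsf1b and Tnfrsf8, adjacent on chromosome 4, stood at 0.34 and -1.39 without STAT3 and at 0.03 and 1.59 without STAT5. Tnfrsf4 and Tnfrsf18, adjacent on the same chromosome, stood at 0.26 and 1.24 without STAT3. On chromosome 6, Cd27, Ltbr and Tnfrsf1a, with 1 other gene between neighbours, stood at -0.08, -0.29 and -1.08. The 2 decoy receptor genes on chromosome 7, Tnfrsf22 and Tnfrsf23, were both lower without STAT3, at -1.66 and -2.51.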
